A study of Mus musculus with 6 samples.

Results

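The genes described here encode the extracellular matrix and the proteins that hold cells to it and cut it: collagens, laminins, fibrillin, matricellular glycoproteins, proteoglycans, integrins, lysyl oxidases, matrix metalloproteinases (MMPs), their tissue inhibitors (TIMPs), and the ADAM and ADAMTS families. They were chosen by name, as protein-coding genes whose symbols begin with or equal the symbols of these families, and 80 of the 14774 genes in the deposited table met that rule. RNA was compared between untreated wild type MA-10 cells, a progesterone-making line from a mouse Leydig cell tumor, and untreated STARKO1 cells, an MA-10 line with STAR KO genotype, with 3 libraries of each. STARKO1 was grown from 1 sorted cell after CRISPR/Cas9 cutting of Star, the gene of the protein that brings cholesterol into mitochondria, so the loss of STAR and the descent of STARKO1 from a single cell cannot be told apart in this comparison. The labels do not say whether the 3 libraries of a line came from separate cultures, and p values therefore measure the spread between these libraries, which may be technical.

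The extracellular matrix is the mesh of secreted proteins that surrounds cells. Laminins, collagen IV and perlecan build the thin basement membrane sheet, collagen VI forms beaded filaments beside it, and integrins, each a pair of an alpha and a beta subunit, tie the mesh to the cytoskeleton. In the testis, Leydig cells lie in the interstitial space between seminiferous tubules and contact such a matrix. MMPs, ADAMTS proteases and membrane-bound ADAM proteins cut matrix and cell surface proteins, and TIMPs block many of them.

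Of the 64 genes with enough counts for a test, 9 (14.1%) differed between the lines beyond the spread of the libraries. The share among all genes tested was 9.04%. The rest did not pass the test, and with 1 library left out the count ran from 2 to 44. Higher in STARKO1 were 6 genes: Cspg4 (a cell surface proteoglycan), Itga11 and Itga6 (integrin alpha subunits), Col6a1 and Col6a6 (chains of collagen VI) and Adam12 (a disintegrin metalloproteinase). Lower in STARKO1 were 3 genes: Thbs2 (a matricellular thrombospondin), Itga2b (the alpha subunit of the platelet fibrinogen receptor) and Adam15 (another disintegrin metalloproteinase).

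The stretch of reference sequence before the start is shown for Cspg4 and Itga11, the genes that rose and were called under every setting that tested them, for Col6a1 and Col6a2, which lie next to each other on chromosome 10 and are present at very unlike levels, and for Thbs2, the most abundant of the genes that fell. These were chosen after the values were seen. The filter of 10 counts in every library left Cspg4 out, so that setting did not test it. Promoter windows were matched for 57 of the 80 genes, 7 of them among the 9 that differed. Sequences are from RefSeq on GRCm38.p6, written 5′ to 3′ on the gene's own strand, and end at the base before the start, taken as the more upstream of the RefSeq start and the deposited one (for Thbs2 the RefSeq start, which lies upstream of the deposited gene end): chr9:56864854-56865032 on the plus strand for Cspg4, chr9:62677605-62677825 on the plus strand for Itga11, chr10:76726169-76726294 on the minus strand for Col6a1, chr10:76623631-76623880 on the minus strand for Col6a2 and chr17:14694263-14694512 on the minus strand for Thbs2. Capitals mark matches on either strand to 4 motifs, the GC box GGGCGG, the TATA box TATAAA, the activator protein site TGANTCA and the steroidogenic factor site AAGGTCA.
Cspg4: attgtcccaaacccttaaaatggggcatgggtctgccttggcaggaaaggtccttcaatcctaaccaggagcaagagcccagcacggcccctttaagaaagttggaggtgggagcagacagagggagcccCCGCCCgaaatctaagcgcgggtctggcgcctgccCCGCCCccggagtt
Itga11: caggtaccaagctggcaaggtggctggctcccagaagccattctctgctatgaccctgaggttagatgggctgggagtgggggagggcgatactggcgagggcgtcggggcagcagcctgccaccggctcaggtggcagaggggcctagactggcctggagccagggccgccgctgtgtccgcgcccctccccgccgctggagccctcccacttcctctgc
Col6a1: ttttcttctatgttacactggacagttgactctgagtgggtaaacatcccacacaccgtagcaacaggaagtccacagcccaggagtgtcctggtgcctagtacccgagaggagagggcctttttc
Col6a2: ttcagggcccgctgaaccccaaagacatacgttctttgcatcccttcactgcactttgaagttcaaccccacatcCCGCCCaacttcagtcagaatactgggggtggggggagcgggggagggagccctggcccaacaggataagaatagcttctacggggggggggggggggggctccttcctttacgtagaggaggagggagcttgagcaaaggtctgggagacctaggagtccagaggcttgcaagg
Thbs2: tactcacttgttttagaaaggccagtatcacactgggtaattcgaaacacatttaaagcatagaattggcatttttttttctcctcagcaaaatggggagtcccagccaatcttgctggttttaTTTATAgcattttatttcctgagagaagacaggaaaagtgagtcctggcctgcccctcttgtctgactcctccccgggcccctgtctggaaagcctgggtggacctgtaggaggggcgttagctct

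The Cspg4 window held 2 GC boxes and that of Col6a2 held 1, and 30.2% and 32.7% of all 32851 promoters held at least 1 in a window of that length. The Thbs2 window held 1 match to the letters of the TATA box, on the opposite strand. A match on either strand was found in 12.4% of all promoters at that length. No motif matched in the Itga11 and Col6a1 windows. A match or its absence describes these letters alone.

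The total counts were similar in the 6 libraries, at 14114351 to 19530062 estimated counts. Star itself fell from 77.2 ± 27.8 CPM (counts relative to the TMM-scaled library size) in MA-10 to 2.27 ± 0.386 in STARKO1 (SD, n = 3; log2 fold change -5.09, SE 0.331, edgeR adjusted p = 0.00121). The scaling was unequal: 3 counts stood for 0.172, 0.260 and 0.264 CPM in MA-10 replicates 1, 2 and 3, and for 0.129 to 0.177 CPM in STARKO1. All 10 Leydig cell marker genes were measured, with summed levels of 1956 to 2661 CPM in MA-10 and 1581 to 1659 CPM in STARKO1, and of these Star and Hsd3b1 fell. Of the marker lists for other cell types, 1 of 7 fibroblast genes was analysed here (Pdgfra, 2.78 to 6.69 CPM against 0 to 0.118), 2 of 5 peritubular myoid genes (summed 13.0 to 20.5 CPM against 1.72 to 2.59), 2 of 5 endothelial genes (26.4 to 41.5 CPM against 118 to 124, mostly Cdh5), 2 of 6 Sertoli cell genes (19.7 to 25.7 against 27.3 to 28.6), 1 of 6 germ cell genes (2.20 to 3.55 against 1.91 to 2.83) and 3 of 6 macrophage genes (5.38 to 10.1 against 6.66 to 8.69). Pdgfra and Des fell and Cdh5 rose. The part of these markers in the matrix genes' differences was not tested. Both groups are cultured lines, and in bulk RNA fewer cells that express a gene and less RNA per cell cannot be told apart. The 3 MA-10 libraries did not group together. Log2 CPM of MA-10 replicate 1 correlated with the other MA-10 libraries at r = 0.897 and 0.931, and with the STARKO1 libraries at 0.956 to 0.959. MA-10 replicates 2 and 3 correlated with each other at 0.979 and with the STARKO1 libraries at 0.871 to 0.904.

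Of the 80 genes, 16 were too low to be tested, with at most 3 to 19 counts in their highest library. Cspg4, Itga6 and Col6a6 passed the filter on low counts through STARKO1, where they are high, and not through MA-10 alone. Their place among the higher genes therefore follows in part from the filter. Of the 64 tested genes, 9 (14.1%) passed an adjusted p under 0.05 in edgeR's quasi-likelihood test. Among all 11939 genes tested the share was 9.04%. The 6 higher genes were 9.38% of those tested, against 4.30% of all genes called higher, and the 3 lower genes were 4.69%, against 4.74% of all genes. The median log2 fold change of the 64 genes was 0.02, with 33 above and 31 below 0, and that of all genes was -0.05. Without adjustment, 35 of the 64 (54.7%) had p under 0.05, against 37.6% of all genes. The 3 libraries of one line lay entirely above those of the other for 35 genes (54.7%), 18 with STARKO1 above and 17 with MA-10 above, against 42.5% of all genes. DESeq2, run on all 80, called 25 genes, 12 higher and 13 lower, and scaling by library size alone called 2, Cspg4 and Itga11, both higher. These 2 were also called whichever single library was left out, whereas the other 7 were called in 1 to 3 of those 6 fits. Counts of called genes were 10 without MA-10 replicate 2, 3 without MA-10 replicate 3, 2 without each STARKO1 library and 44 without MA-10 replicate 1. The share of all genes is given below for the fit without MA-10 replicate 1. It is not given for the other fits that left out a library, for library size alone or for DESeq2, here and in the groups below. Those counts therefore do not tell whether matrix genes stand out.

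**Figure D1:**
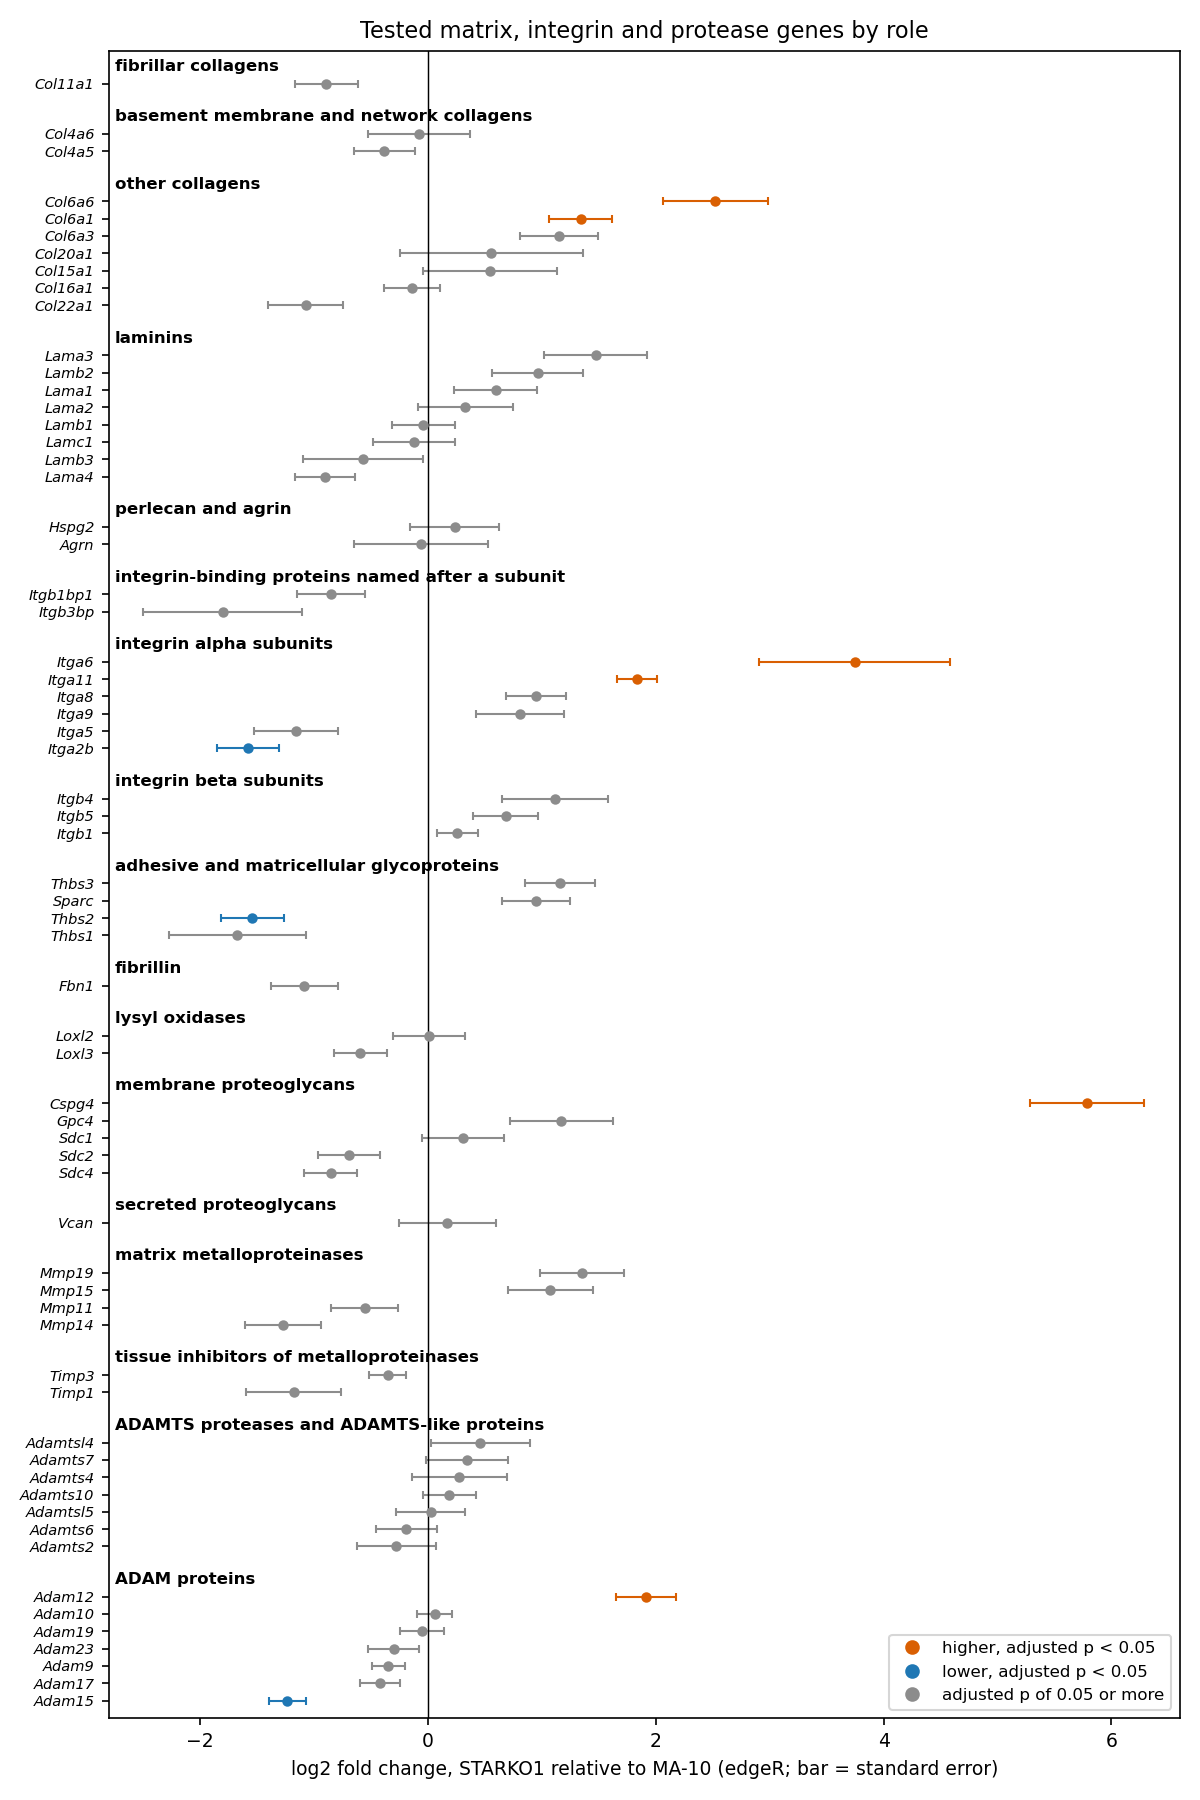
Log2 fold change of STARKO1 relative to MA-10 (x axis, edgeR, bars are standard errors) for the 64 tested genes, grouped by role. The 6 genes in orange were higher and the 3 in blue lower at an adjusted p under 0.05, and the values of Cspg4 and Itga6 depend on the prior count because MA-10 was near 0 counts.

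Taking the structural proteins first, 18 genes encode collagen chains. Of the collagen VI chains, Col6a1 (chromosome 10, 76708792 to 76726168, minus strand, GRCm38) stood at 131, 65.7 and 84.8 CPM in MA-10 replicates 1, 2 and 3, and at 220, 244 and 248 CPM in STARKO1. Every STARKO1 library was above every MA-10 library, and MA-10 replicate 1 was nearest to them. The means were 93.8 ± 33.5 and 237 ± 15.0 CPM (SD, n = 3), or 1.34 on the log2 scale (SE 0.274, edgeR adjusted p = 0.0348). Col6a6, whose chain can stand in for that of Col6a3 in collagen VI, is on chromosome 9 (105687809 to 105828160, minus strand) and overlaps Gm38314 on the other strand. Its estimated counts were 14, 3 and 3 in MA-10 and 56, 54 and 47 in STARKO1. The groups did not overlap, and the level rose from 0.442 ± 0.312 to 2.74 ± 0.397 CPM (SD, n = 3; log2 fold change 2.52, SE 0.459, edgeR adjusted p = 0.0259). MA-10 replicate 1 held most of the MA-10 counts, and without it the log2 fold change was 3.43. The Col6a6 call was lost when any other library was left out (adjusted p = 0.0596 to 0.132), with library size alone (0.0652) and with a replicate block (0.0708).

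Col6a3, the long chain that normally joins Col6a1, measured 225, 87.8 and 147 CPM in MA-10 and 324, 320 and 378 CPM in STARKO1. The groups did not overlap, but the spread in MA-10 was wide and the gene missed the threshold (log2 fold change 1.15, SE 0.342, edgeR adjusted p = 0.0703). Col6a2, the remaining classical chain, was close to absent, with 0, 1 and 0 estimated counts in MA-10 and 9, 0 and 5 in STARKO1, and was not tested. Per kilobase of exon, Col6a1 stood at 21.4 ± 7.64 CPM in MA-10 and 54.2 ± 3.43 in STARKO1, Col6a3 at 12.8 ± 5.75 and 28.5 ± 2.71, and Col6a2 at mean levels of 0.00347 and 0.0267 (SD, n = 3). Col6a2 lies downstream of Col6a1 on the same strand of chromosome 10 (76595762 to 76623630), and its near-zero counts stand beside one of the most abundant matrix transcripts.

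The other collagens did not pass the test. Col11a1, a fibrillar chain and the only one tested, stood at 44.9, 22.8 and 45.2 CPM in MA-10 and at 20.1, 18.9 and 21.8 CPM in STARKO1. Every MA-10 library was higher, but replicate 2 lay close to the STARKO1 level (log2 fold change -0.89, edgeR adjusted p = 0.0767). Col22a1, a collagen of tissue junctions, was similar, with a log2 fold change of -1.07 (adjusted p = 0.0744). Col4a5, a basement membrane chain, was the most abundant collagen IV chain at 6.46 ± 2.45 and 4.96 ± 0.138 CPM per kilobase (SD, n = 3; log2 fold change -0.38, edgeR adjusted p = 0.315). Its partner Col4a6 was lower in level, and Col4a1, a chain of the most widespread collagen IV, had 12, 1 and 1 counts in MA-10 and 7, 7 and 5 in STARKO1, too few to be tested. Of the 10 collagen genes tested, 5 had p under 0.05 without adjustment, against 37.6% of all genes tested.

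Laminins are trimers of an alpha, a beta and a gamma chain, and of 9 laminin genes 8 were tested. None was called by edgeR and DESeq2 called 1. Without adjustment 3 had p under 0.05, against 37.6% of all genes tested. The log2 fold changes ran from -0.90 to 1.47 with a median of 0.14. In level per kilobase, 1 beta and 1 gamma chain led, with Lamb1 at 23.7 ± 8.60 CPM in MA-10 and 23.1 ± 0.845 in STARKO1 and Lamc1 at 19.2 ± 9.87 and 17.6 ± 0.408 (SD, n = 3). For both, the groups overlapped. The leading alpha chains were Lama1, at 8.82 ± 4.80 and 13.3 ± 0.480 CPM per kilobase, and Lama4, at 10.2 ± 3.28 and 5.45 ± 0.561 (SD, n = 3). Lama4, found in vessel and muscle basement membranes, was at 161, 81.9 and 127 CPM in MA-10 and 72.7, 59.1 and 65.7 CPM in STARKO1, so that all MA-10 libraries were higher (log2 fold change -0.90, SE 0.263, edgeR adjusted p = 0.0678). Lama1, the alpha chain of early embryonic laminin, was at 138, 49.4 and 69.0 CPM in MA-10 and at 125, 129 and 134 CPM in STARKO1. Here MA-10 replicate 1 lay above all STARKO1 libraries and the other MA-10 libraries far below them (log2 fold change 0.60, adjusted p = 0.261). Lamb2 was at 25.5, 8.07 and 11.8 CPM against 28.4, 29.1 and 31.5 (log2 fold change 0.96, adjusted p = 0.131), and Lama2, Lama3 and Lamb3 were at most 0.222 CPM per kilobase in mean. Lama3, an alpha chain of epithelia, had the highest laminin fold change, at 0.357 ± 0.159 and 1.02 ± 0.289 CPM without overlap (SD, n = 3; log2 fold change 1.47, edgeR adjusted p = 0.0749). It had 8, 2 and 5 counts in MA-10 and passed the filter on low counts through STARKO1, where it is higher. Its fold change and its place among the tested laminins therefore follow in part from the filter.

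Perlecan (Hspg2) and agrin (Agrn), the heparan sulfate proteoglycans of basement membranes, showed the same spread. Agrn had 27.5, 4.86 and 8.01 CPM in MA-10 and 13.0 in each STARKO1 library. The single high library brought the MA-10 mean to 13.5 ± 12.3 CPM, next to 13.0 in STARKO1 (SD, n = 3; log2 fold change -0.06, edgeR adjusted p = 0.944). Hspg2 was at 165, 53.3 and 84.3 CPM against 107, 116 and 133 (log2 fold change 0.23, adjusted p = 0.675).

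**Figure D2:**
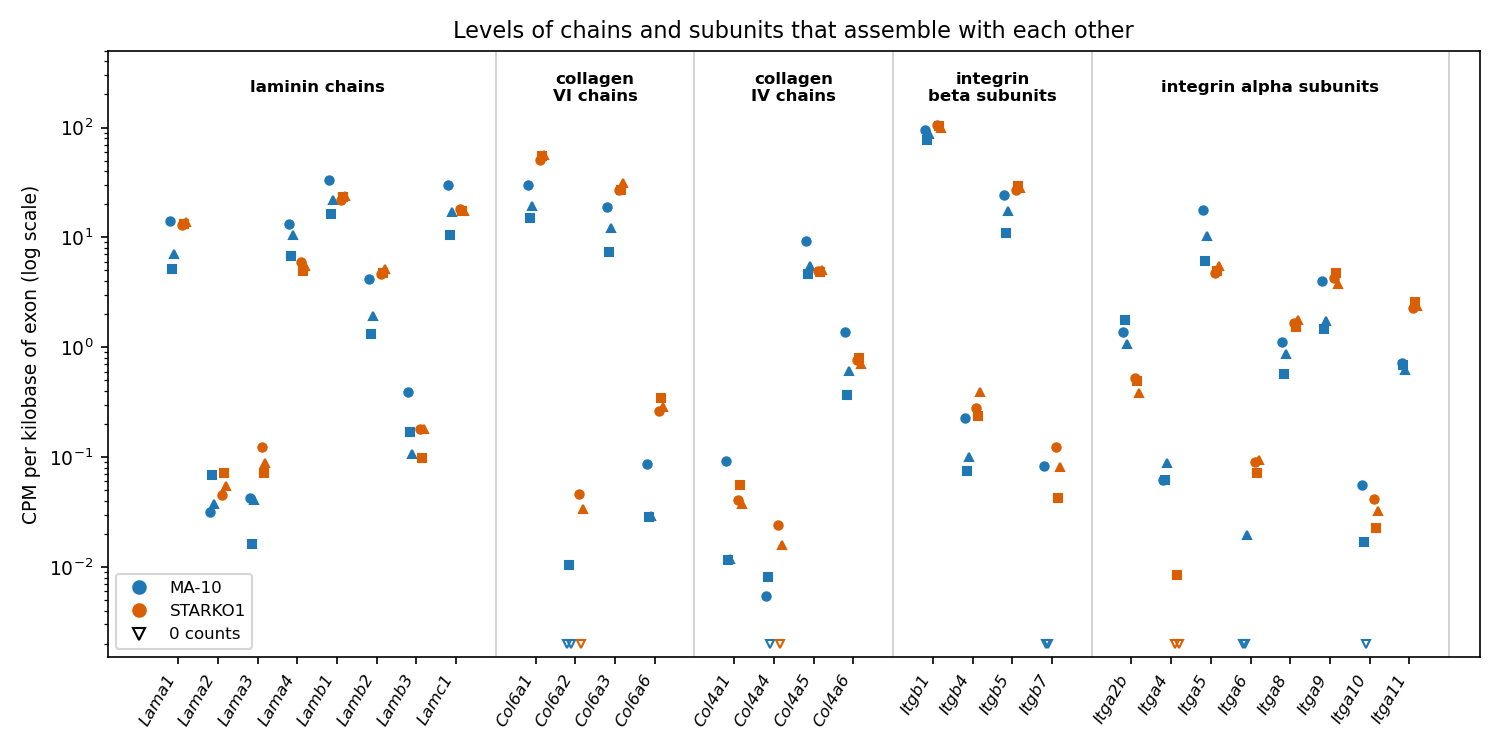
Levels of laminin, collagen VI and collagen IV chains and integrin subunits, in CPM per kilobase of exon on a log axis, with MA-10 in blue and STARKO1 in orange. Circles, squares and filled triangles are replicates 1, 2 and 3, and open triangles at the foot mark 0 counts. Col6a2, Itga6 and Itga4 lie near the foot in at least 1 line while Lamb1, Lamc1, Col6a1 and Itgb1 lie at the top of their groups.

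Of 6 integrin alpha subunits tested, 2 rose and 1 fell, against 4.30% of all genes called higher and 4.74% called lower. Without adjustment 5 had p under 0.05, against 37.6% of all genes. These groups are small, and no test compared them with the shares of all genes. Itga11 encodes a collagen-binding subunit of mesenchymal cells (chromosome 9, 62677826 to 62783982, plus strand). It measured 3.72, 3.56 and 3.17 CPM in MA-10 and 11.8, 13.3 and 12.2 CPM in STARKO1. Both groups were tight, MA-10 replicate 1 included, and the level rose from 3.48 ± 0.283 to 12.5 ± 0.788 CPM (SD, n = 3; log2 fold change 1.83, SE 0.175, edgeR adjusted p = 0.00371). Itga6, a laminin-binding subunit (chromosome 2, 71745616 to 71858416, plus strand), had 0, 0 and 2 counts in MA-10 and 19, 11 and 15 in STARKO1. It was near the floor of 3 counts in one line and low in the other. The summed counts of 45 and 2 gave a ratio of 15.6 after scaling, with a 95% exact interval of 4.09 to 133 for counting error only (edgeR adjusted p = 0.0430). Itga6 passed the filter on low counts through its STARKO1 level alone. Its call was lost without a filter (adjusted p = 0.0501), with library size alone (0.0558) and with a replicate block (0.0973). It was also lost in all fits that left out 1 library (0.0604 to 0.185) except that without MA-10 replicate 1.

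Itga2b encodes the alpha subunit that platelets use to bind fibrinogen (chromosome 11, 102453297 to 102470122, minus strand). It was at 7.50, 9.71 and 5.81 CPM in MA-10 and 2.88, 2.71 and 2.08 CPM in STARKO1. All STARKO1 libraries were lower, and the mean fell from 7.68 ± 1.96 to 2.56 ± 0.423 CPM (SD, n = 3; log2 fold change -1.58, SE 0.269, edgeR adjusted p = 0.0221). Itga4, a subunit that binds fibronectin and VCAM1, went the same way at low counts, with 15, 10 and 14 in MA-10 and 0, 2 and 0 in STARKO1. It did not pass the filter on low counts. Without the filter its edgeR adjusted p was 0.0328, and DESeq2 gave 0.00123, which is 1 of its 25 calls, while 4 edgeR fits that left out 1 other library let it through the filter and did not call it (adjusted p = 0.0544 to 0.139). The summed counts of 39 and 2 gave an MA-10 to STARKO1 ratio of 28.0, with a 95% exact interval of 7.26 to 240.

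The fibronectin receptor subunit Itga5 was at 87.6, 30.0 and 50.4 CPM in MA-10 and 23.6, 24.6 and 27.3 CPM in STARKO1. The groups did not overlap, though replicate 2 of MA-10 was near the STARKO1 libraries (log2 fold change -1.16, SE 0.370, edgeR adjusted p = 0.0800). Itga8, which binds nephronectin, was at 8.30, 4.16 and 6.34 CPM against 12.1, 11.4 and 13.0 (log2 fold change 0.95, adjusted p = 0.0639), and Itga9, which binds tenascin, had a log2 fold change of 0.81 (adjusted p = 0.170).

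Of the 3 beta subunits tested none was called by edgeR or DESeq2. Without adjustment 2 had p under 0.05, against 37.6% of all genes. Itgb1, the shared beta partner of Itga4, Itga5, Itga6, Itga8, Itga9 and Itga11, was the most abundant of the tested genes per kilobase, at 86.0 ± 8.75 CPM in MA-10 and 103 ± 3.25 in STARKO1 (SD, n = 3). Its CPM were 385, 314 and 353 against 429, 425 and 404. The STARKO1 libraries were all above the MA-10 libraries by a small margin (log2 fold change 0.26, edgeR adjusted p = 0.314). Itgb5, a partner of the alpha v subunit in vitronectin binding, was at 86.5, 38.7 and 61.4 CPM against 96.1, 104 and 99.2 (log2 fold change 0.68, adjusted p = 0.133). Itgb4, the partner of Itga6 in hemidesmosomes, was at 0.943 ± 0.580 and 2.13 ± 0.566 CPM (SD, n = 3; log2 fold change 1.11, edgeR adjusted p = 0.129). Itgb4 passed the filter on low counts through STARKO1, where it is higher, and not through MA-10 alone. The name rule also took in Itgb1bp1 and Itgb3bp, which are not subunits: the first encodes a protein that binds an integrin tail and the second a centromere protein. Their log2 fold changes were -0.86 (adjusted p = 0.0922) and -1.80 (adjusted p = 0.113). Itgb3bp had 4.64 CPM in MA-10 replicate 1 and 44.8 and 27.7 in the other 2, against 6.80 to 7.75 in STARKO1.

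Among adhesive and matricellular proteins, Thbs2, a thrombospondin that limits angiogenesis (chromosome 17, 14665500 to 14694235, minus strand), was at 38.8, 22.5 and 43.0 CPM in MA-10 and 13.0, 9.79 and 13.0 CPM in STARKO1. Replicate 2 was the lowest MA-10 library and still above all STARKO1 libraries. The mean fell from 34.8 ± 10.8 to 11.9 ± 1.86 CPM (SD, n = 3; log2 fold change -1.54, SE 0.279, edgeR adjusted p = 0.0257). Its relatives Thbs1 and Thbs3 were at low levels and had log2 fold changes of -1.67 (adjusted p = 0.0971) and 1.16 (adjusted p = 0.0600), each without overlap between the lines. Thbs1 passed the filter on low counts through MA-10, where it is higher, and not through STARKO1 alone. Sparc, a collagen-binding protein, came second only to Itgb1 in level per kilobase, at 55.4 ± 22.6 CPM in MA-10 and 107 ± 1.25 in STARKO1 (SD, n = 3). Its CPM were 309, 155 and 166 against 410, 402 and 402. The STARKO1 values were close to each other and all above MA-10, whose replicate 1 was nearest (log2 fold change 0.95, SE 0.298, edgeR adjusted p = 0.0774).

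Fbn1, the fibrillin of microfibrils, was at 389, 179 and 275 CPM in MA-10 and 131, 124 and 142 CPM in STARKO1. The groups did not overlap (log2 fold change -1.09, SE 0.292, edgeR adjusted p = 0.0609), and with offsets for gene length the adjusted p was 0.0377. Loxl2, which crosslinks collagen and was the fourth most abundant of the tested genes per kilobase, did not separate the lines, with 270, 139 and 134 CPM against 199, 201 and 147 (log2 fold change 0.01, adjusted p = 0.986). Loxl3, of the same enzyme family, was at 4.85 ± 0.531 and 3.21 ± 0.559 CPM (SD, n = 3; log2 fold change -0.59, edgeR adjusted p = 0.115).

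The proteoglycan Cspg4, also called NG2, is a marker of pericytes and glial precursors and binds collagen VI (chromosome 9, 56865033 to 56899870, plus strand). It had 1, 1 and 0 counts in MA-10 and 76, 53 and 54 in STARKO1. All MA-10 libraries were at or under the floor of 3 counts, which is at most 0.264 CPM there, and the STARKO1 libraries were alike at 3.27, 3.12 and 3.03 CPM. The summed counts of 183 and 2 gave a ratio of 63.6, with a 95% exact interval of 17.4 to 529 (edgeR adjusted p = 0.00268). Cspg4 passed the filter on low counts through its STARKO1 level alone, and its fitted fold change depends on the prior count. No other of the 64 tested genes had so large a fitted value, and that rank follows in part from the filter.

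The other membrane proteoglycans were measured at higher levels in both lines and did not pass the test. Syndecans Sdc2 and Sdc4, heparan sulfate carriers that act with integrins, were at 74.3, 156 and 121 and at 57.4, 84.6 and 98.6 CPM in MA-10. In STARKO1 they were at 71.2 to 73.2 and 38.1 to 48.7 CPM. Both were lower in every STARKO1 library, Sdc2 narrowly so next to MA-10 replicate 1 (log2 fold changes -0.70 and -0.86, edgeR adjusted p = 0.114 and 0.0623). Gpc4, a glypican anchored in the membrane by lipid, went the other way at 26.7, 6.59 and 13.6 CPM against 36.9, 33.6 and 35.6 (log2 fold change 1.17, adjusted p = 0.113). Sdc1, the syndecan of epithelia and plasma cells, was at 22.6 ± 12.5 and 28.0 ± 1.02 CPM (SD, n = 3; log2 fold change 0.30, edgeR adjusted p = 0.547). Vcan, a secreted proteoglycan, was under 1 CPM in every library (log2 fold change 0.17, adjusted p = 0.782).

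**Figure D3:**
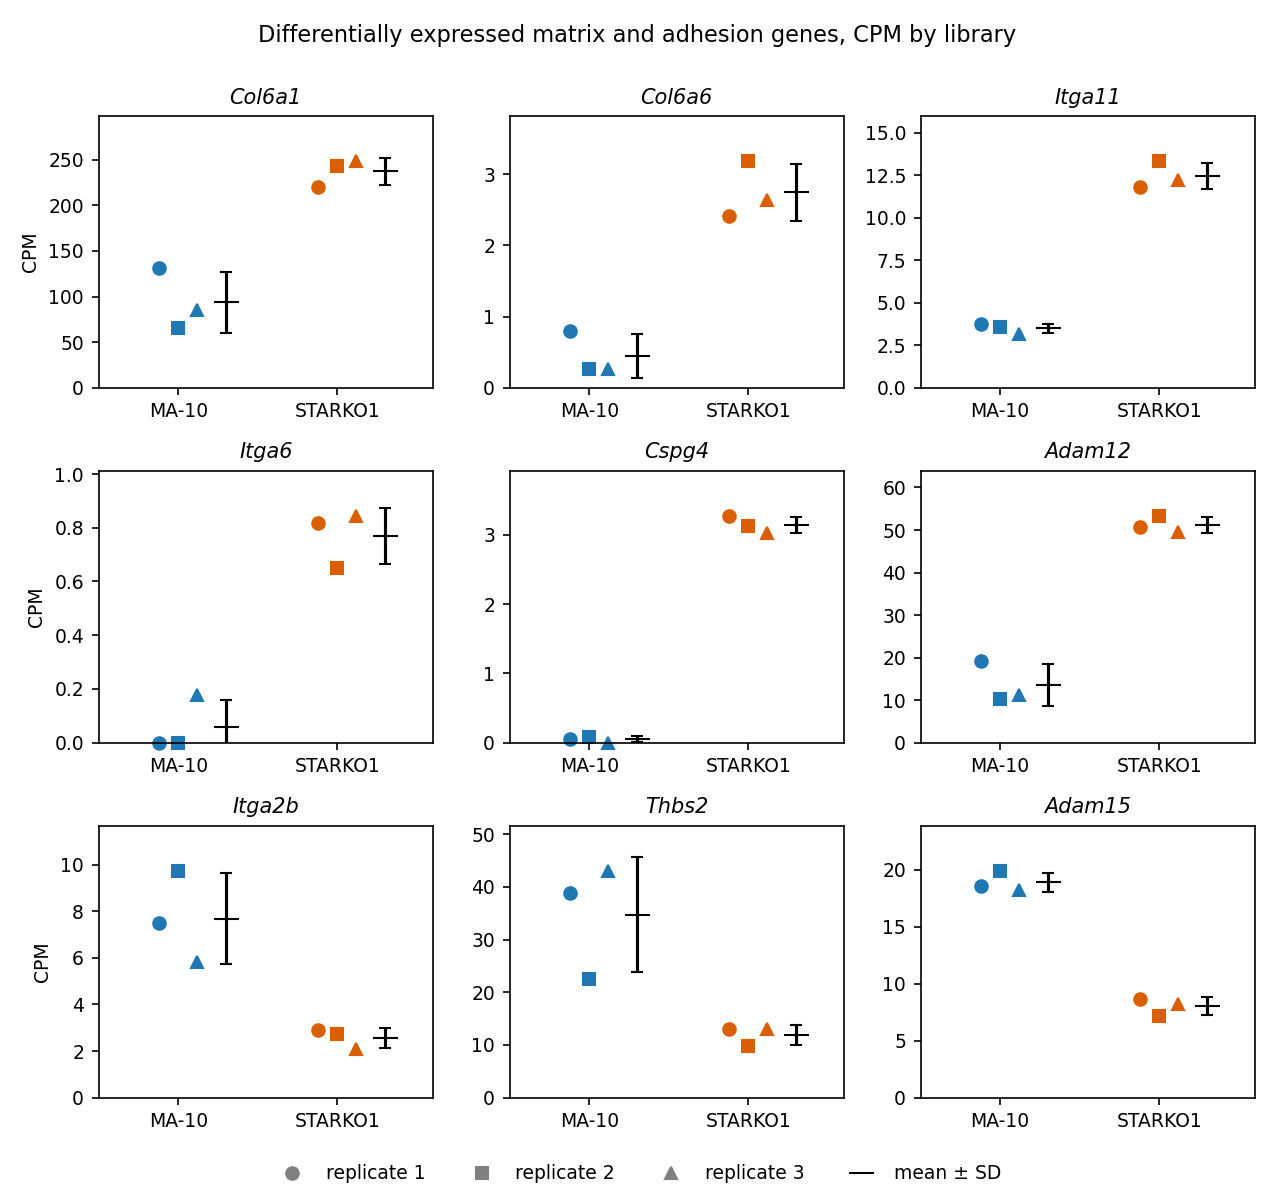
CPM of the 9 differentially expressed genes in each library (y axis, linear from 0 in each panel), with MA-10 in blue and STARKO1 in orange and markers for replicates 1, 2 and 3. Black bars are mean ± SD and are cut at 0 for Itga6, and in every panel the lines do not overlap.

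Of the proteases, Adam12, known from muscle, placenta and activated mesenchymal cells (chromosome 7, 133883199 to 134232146, minus strand), had 19.2, 10.2 and 11.2 CPM in MA-10 and 50.8, 53.2 and 49.6 CPM in STARKO1. All STARKO1 libraries were well above MA-10. The mean rose from 13.5 ± 4.92 to 51.2 ± 1.84 CPM (SD, n = 3; log2 fold change 1.91, SE 0.265, edgeR adjusted p = 0.0114). Adam15, which carries an integrin-binding motif (chromosome 3, 89338542 to 89349996, minus strand), was at 18.6, 19.9 and 18.2 CPM in MA-10 and 8.65, 7.13 and 8.26 CPM in STARKO1. Both groups were tight, and the mean fell from 18.9 ± 0.864 to 8.01 ± 0.786 CPM (SD, n = 3; log2 fold change -1.23, SE 0.161, edgeR adjusted p = 0.00913). Its exons overlap the antisense gene 4731419I09Rik, and since strand use in counting is not given in the sources used here, reads of the pair cannot be told apart. The other 5 ADAM genes tested were not called, among them Adam10, a general sheddase, at 101 ± 7.50 and 105 ± 7.15 CPM (SD, n = 3; log2 fold change 0.06, edgeR adjusted p = 0.793) and Adam17, which releases tumor necrosis factor, at a log2 fold change of -0.43 (adjusted p = 0.127). Adam9, Adam19 and Adam23 had log2 fold changes of -0.35, -0.05 and -0.30 (adjusted p = 0.128, 0.852 and 0.346).

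No MMP passed the edgeR test and DESeq2 called 2. Without adjustment 3 of 4 had p under 0.05, against 37.6% of all genes. Mmp14, the membrane-bound collagenase, was at 15.1, 7.03 and 7.84 CPM in MA-10 and 3.66, 4.77 and 4.05 CPM in STARKO1. Mmp19, a secreted protease of basement membrane proteins, was at 3.32, 1.21 and 1.85 CPM against 4.99, 5.78 and 5.90. Neither pair of groups overlapped, in opposite directions (log2 fold changes -1.27 and 1.35, edgeR adjusted p = 0.0589 and 0.0617). Mmp15, another membrane-bound member, was at 1.12 ± 0.499 and 2.42 ± 0.178 CPM without overlap (SD, n = 3; log2 fold change 1.07, edgeR adjusted p = 0.0905). Mmp15 passed the filter on low counts through STARKO1, where it is higher, and not through MA-10 alone. Mmp11, the most abundant per kilobase, was at 16.9 ± 6.35 and 11.5 ± 2.00 CPM (SD, n = 3; log2 fold change -0.55, edgeR adjusted p = 0.206). Neither inhibitor was called, 1 had p under 0.05 without adjustment and DESeq2 called 1. Timp3, which stays bound to the matrix, was at 93.1, 106 and 117 CPM against 84.0, 75.9 and 87.9 (log2 fold change -0.35, adjusted p = 0.156). Timp1, which is secreted freely, was at 5.15, 16.3 and 12.9 CPM against 4.43, 4.54 and 6.12, overlapping through MA-10 replicate 1 (log2 fold change -1.18, adjusted p = 0.0949). Of the 7 ADAMTS and ADAMTS-like genes tested, none was called by edgeR or DESeq2, none had p under 0.05 without adjustment, and their median log2 fold change was 0.19. Adamts4, an aggrecanase and the most abundant of them per kilobase, was at 4.32 ± 2.62 and 5.31 ± 0.572 CPM (SD, n = 3; log2 fold change 0.27, edgeR adjusted p = 0.641).

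MA-10 replicate 1 weighed on many of these genes. Summed over the 80 genes, the level was 4096 CPM in MA-10 replicate 1, 2480 in replicate 2 and 3033 in replicate 3, against 3473 to 3510 in STARKO1. Replicate 1 was above both other MA-10 libraries for 46 of the 64 tested genes (71.9%), against 44.5% of all genes tested. The median log2 ratio of replicate 1 to the mean of the other 2, with 0.5 CPM added, was 0.72 for these genes and 0.03 for all genes. Matrix genes are long, with a median exon length of 6734 bases against 3694 over all genes. Among the 2815 tested genes at least as long as the matrix gene median, the median ratio was 0.19. The part of gene length in the level of replicate 1 was not tested.

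Without that library, edgeR called 44 of 66 tested genes (66.7%), against 65.7% of all genes under the same setting. Higher were 30 (45.5%), against 34.0% of all genes, and lower were 14 (21.2%), against 31.7%. All 9 genes called with 6 libraries were called, and 55 of the 64 log2 fold changes kept their sign. Among the higher genes that joined them, Sparc had a log2 fold change of 1.42 (edgeR adjusted p = 3.45e-05), Col6a3 1.62 (0.000454), Lamb2 1.66 (0.000119), Lama1 1.21 (0.000385), Gpc4 1.90 (0.000418) and Itgb5 1.08 (0.00179). Lower genes joined as well, among them Itgb3bp at -2.21 (edgeR adjusted p = 4.40e-05), Timp1 at -1.45 (0.000274), Sdc2 at -0.85 (0.000524) and Sdc4 at -0.96 (0.000591). Agrn changed sign, from -0.06 to 1.10 (adjusted p = 0.00216). Whether replicate 1 or the other 2 libraries represent MA-10 better was not tested.

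**Figure D4:**
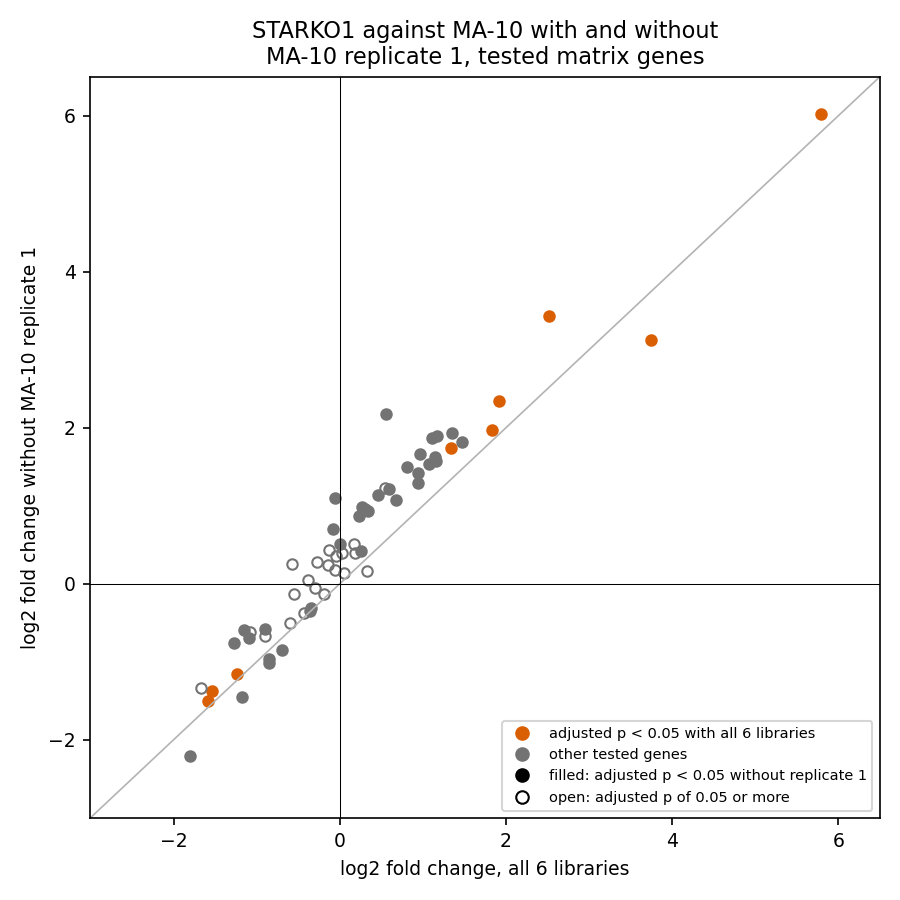
Log2 fold change of STARKO1 relative to MA-10 with all 6 libraries (x axis) and without MA-10 replicate 1 (y axis) for the 64 genes tested with all libraries. Orange points are the 9 genes called with 6 libraries, filled points are the 43 of the 64 called without that library, and most points lie above the diagonal of equality.

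Related genes outside the name rule were taken from lists of 194 genes, of which 94 were measured and 80 tested. Called were 6 (2 higher, 4 lower), or 7.50% of those tested, under the 9.04% of all genes, so the lists did not stand out and the called genes are given as single genes. Without MA-10 replicate 3 the count was 2, and without each STARKO1 library 0. Without MA-10 replicate 1 it was 58 of 80 tested, in a fit that called 65.7% of all genes. Collagen processing, with 20 genes tested, held 4 of the 6. P4ha1, a prolyl hydroxylase that lets collagen fold, was at 319, 785 and 617 CPM in MA-10 and 186, 183 and 152 CPM in STARKO1, and every STARKO1 library was lower (log2 fold change -1.72, SE 0.346, edgeR adjusted p = 0.0329). P3h3, a prolyl hydroxylase family member, fell from 4.08 ± 1.68 to 0.978 ± 0.347 CPM (SD, n = 3; log2 fold change -2.07, edgeR adjusted p = 0.0326). Pcolce, which speeds the trimming of procollagen, rose from 170 ± 33.3 to 319 ± 21.3 CPM (log2 fold change 0.91, adjusted p = 0.0449), while its relative Pcolce2 fell from 3.86 ± 0.518 to 1.02 ± 0.111 CPM (log2 fold change -1.91, adjusted p = 0.0101). Among 12 other matrix proteins tested, Spp1 (osteopontin, an integrin ligand) rose from 0.600 ± 0.196 to 2.74 ± 0.239 CPM (log2 fold change 2.21, adjusted p = 0.0147). Spp1 passed the filter on low counts only through STARKO1, where it is high, so its call follows in part from the filter. Among 18 other receptors and inhibitors, Bcam, a laminin receptor, fell from 6.17 ± 4.14 to 1.25 ± 0.228 CPM (log2 fold change -2.30, adjusted p = 0.0443). It was at 10.7 CPM in MA-10 replicate 1 and at most 5.20 CPM in the other MA-10 libraries, and without replicate 1 the log2 fold change was -1.53 (adjusted p = 0.00591). The Bcam call was lost with length offsets (adjusted p = 0.0512), without a filter (0.0521), with 10 counts in every library (0.0514), with upper quartile scaling (0.0638) and with library size alone (0.131). It was also lost with a replicate block (0.0651), without MA-10 replicate 3 and without each STARKO1 library (0.132 to 0.194).

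Of the 24 tested focal adhesion genes, which link integrins to actin, none was called by edgeR and DESeq2 called 3. Without adjustment 4 had p under 0.05, under the share of 37.6% among all genes. Of 5 tested plasminogen system genes none was called, 2 had p under 0.05 without adjustment and DESeq2 called 2. Itgav, the alpha v subunit, the single tested gene of the other integrin subunits, had a log2 fold change of 0.33 (edgeR adjusted p = 0.451), was not called by DESeq2 and had p above 0.05 without adjustment. Without MA-10 replicate 1, edgeR called 16 of the 24 focal adhesion genes and 3 of the 5 plasminogen system genes. Itgav was also called there (log2 fold change 0.78, edgeR adjusted p = 0.00792). That fit called 65.7% of all genes.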

How the data were processed

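RNA-seq libraries of MA-10 cells (3) and STARKO1 cells (3) were compared. The authors deposited estimated counts per gene without normalization, of which 43.8% of the genes hold values that are not whole (tolerance 0.001), 23 of the 80 genes described here included (Col6a1 and Adam12 among them). The submitters' processing notes name STAR 2.6.1d, Partek and mm10, without their roles. Library preparation was stranded, and whether strand was used in counting is not given in the sources used here. The deposited table holds genes with at least 10 counts in total.

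Estimated counts were rounded and tested in R 4.3.3 with edgeR 4.0.16: filterByExpr, TMM scaling, quasi-likelihood test over all genes without a replicate block, and Benjamini-Hochberg adjustment (called at an adjusted p under 0.05). The common biological coefficient of variation was 0.291. CPM are counts over the TMM-scaled library size, and levels per kilobase use the union of exons in GENCODE on GRCm38, to which all 80 genes were matched with the same start. For Cspg4, Itga6 and Itga4, which never exceeded 3 counts in one line and always did in the other, the ratio of summed counts is given with a 95% exact interval.

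The genes and lists were chosen with earlier results of these data known. Given in most detail are called genes, the most abundant gene per kilobase of each role, genes near the floor in 1 line, called genes of the lists, Star and the marker lists. Other genes were named after their values were seen. Alternatives were DESeq2 1.42.0, other scalings and filters, a replicate block, length offsets, removal of the 50 most abundant genes, a stricter threshold and leaving out each library. The scripts were tested on simulated data. Tables, windows and plots used matplotlib 3.10.9, numpy 2.4.6, pandas 2.3.3 and scipy 1.17.1 under Python 3.11.15. No comparison columns of the authors were used. The values of 1 gene are not reported here.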

Additional observations from a re-analysis of the deposited data

How the results depend on the processing

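Against 9 genes called among the matrix genes, DESeq2 called 25, library size alone 2, an adjusted p under 0.01 called 3, and leaving out 1 library gave 2 to 44. Against 6 called genes of the related lists, the same settings gave 21, 2, 0 and 0 to 58. Among these settings, the share of all genes is given only for the fit without MA-10 replicate 1. Removing abundant genes, upper quartile scaling, length offsets, no filter and a filter of 10 counts in every library kept both counts within 1.5 times. Star was called throughout, at log2 fold changes of -4.58 (library size alone) to -5.23 (without MA-10 replicate 3). Library size alone moved the median of all genes from -0.05 to 0.38. Length offsets added Fbn1, Lama4 and Mmp14, all lower.

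The deviations of same-numbered libraries showed little correlation (r = -0.0165, 0.0455 and 0.0201), and those of unlike numbers ran from -0.0535 to 0.0382. This check cannot decide whether the numbers pair the samples. The STARKO1 libraries were nearly alike (r = 0.993 to 0.994), which left little to compare, and MA-10 replicate 1 stood apart from the other MA-10 libraries. With a replicate block, edgeR called 4 matrix genes and 0 of the related lists, and Star stood at -5.04.

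Among the named genes, signs changed only in genes that were not called. Lamb1 turned to 0.30 with library size alone, 0.0053 without a filter, 0.020 with the replicate block and 0.074 with upper quartile scaling. Loxl2 turned to -0.016 with length offsets, and Timp3 to 0.11 with library size alone. With 1 library left out, values ran from -0.58 to 0.053 for Col4a5, -0.25 to 0.36 for Lamb1, -0.072 to 0.87 for Hspg2, -0.17 to 0.51 for Loxl2, -0.14 to 0.51 for Vcan and -0.034 to 0.98 for Adamts4. The causes were not tested. Low counts limit Itga6, Col6a6 and the 16 untested genes.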

Other observations

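The 16 genes too low to be tested with all 6 libraries include several with known places in the testis or in immune cells. Adam1a, a gene of the fertilin family in the testis, had 0, 5 and 2 counts in MA-10 and 11, 6 and 6 in STARKO1. Adam8, a protease of leukocytes, had 2, 5 and 4 counts in MA-10 and 18, 7 and 11 in STARKO1. Adam11, a brain member without protease activity, had 0 counts in all 3 MA-10 libraries, which allows up to 0.264 CPM, and 1, 3 and 8 in STARKO1. Col2a1, the cartilage collagen, had 6, 0 and 0 counts against 13, 5 and 13. Without MA-10 replicate 1, which held all of its MA-10 counts, Col2a1 passed the filter and was 1 of the 44 genes called (edgeR adjusted p = 0.00813), and it was not called in the other settings that tested it (0.193 to 0.376). Itgb7, a beta subunit of lymphocytes, had 4, 0 and 0 against 8, 2 and 4. Col17a1, the collagen of hemidesmosomes, had 3, 3 and 4 against 2, 2 and 1.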
